A study of Mus musculus with 2 samples.

Results

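B-lineage cells without high immunoglobulin were a small group of 99 cell barcodes in single-cell RNA sequencing of adherent mouse bone marrow stromal cultures. They made up 99 of 13677 barcodes that passed quality limits, out of 15265 in all. Marrow flushed from femurs and tibias was plated in medium with 10% serum, cells that had not attached were removed after 48 h, and no drug or osteogenic medium was given. One library came from cKO mice (Prrx1-Cre+/-; Slc31a1flox/flox) and 1 from WT littermates (Slc31a1flox/flox), both on a C57BL/6J background. Both genotypes therefore carried the floxed Slc31a1 alleles, and they differed by the Cre transgene. Slc31a1 encodes a copper importer of the plasma membrane. The Prrx1 promoter drives Cre in limb mesenchyme and is not a B-cell promoter. The labels call the cultures mesenchymal stem cells and give both libraries as batch 1, and the sources used here do not give the age of the mice or how many contributed to each library.

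A barcode was kept with at least 500 genes, at least 1000 unique molecular identifiers (UMIs, each standing for 1 captured mRNA molecule) and at most 15% mitochondrial UMIs. A kept barcode was a member when Cd79a and Cd79b together had at least 5 UMIs, immunoglobulin genes (Igkc, Igha, Ighm, Jchain and Iglc1 to Iglc3) took under 5% of its UMIs, and Col1a1, Col1a2 and Sparc together had under 60 UMIs per 10000. The cKO library gave 56 members and the WT library 43. The collagen limit removed 5 cKO and 2 WT barcodes that met the other criteria. At the edge of the rule, 3 cKO and 0 WT members had exactly 5 Cd79 UMIs, and 3 barcodes of each library with 4 Cd79 UMIs lay just outside. The highest immunoglobulin share among members was 3.52%, and the lowest among the barcodes excluded for it was 14.2%. The highest collagen value among members was 32.6 per 10000 UMIs and the lowest excluded for it was 76.1. Of 11 barcode sequences that the libraries shared, 1 belonged to a cKO member.

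B cells arise in bone marrow from progenitors that assemble immunoglobulin genes with the Rag1 and Rag2 recombinase, first the heavy chain and then a kappa or lambda light chain. The transcription factors Ebf1 and Pax5 set and hold the B-cell programme, and the Cd79a and Cd79b proteins form the signalling part of the pre-B-cell and B-cell receptors. Later B cells gain surface IgD, the membrane protein CD20 (Ms4a1) and MHC class II, and they leave the marrow or return to it through the blood. Stromal cells of the marrow support early B cells through interleukin 7 and the chemokine Cxcl12.

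The sequence upstream of 2 of the 4 B-lineage markers and of Cd22, an inhibitory receptor gene of B cells, is given as promoter context. Of these genes only Cd79a was part of the member rule. Promoters were read from RefSeq (GRCm38.p6), in which Cd79a and Vpreb3 of the 4 markers and 18 of 24 B-cell identity genes were matched. The stretches below run 5′ to 3′ on the strand of the gene, end where an annotated exon or the RefSeq start begins, and carry a searched motif in capitals. In Cd79a the capitals are CAGGTG, an E-box of the kind bound by Tcf3. In Vpreb3 they are ATTTGCAT, the octamer bound by Pou2f1 and Pou2f2, and in Cd22 they are a match to the palindromic core bound by Ebf1, CCCNNGGG with T before and A after it.
Cd79a, chr7:24897247-24897380, plus strand: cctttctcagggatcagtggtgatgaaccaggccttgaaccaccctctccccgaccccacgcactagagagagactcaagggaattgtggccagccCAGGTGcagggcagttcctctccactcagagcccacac
Vpreb3, chr10:75948050-75948299, plus strand: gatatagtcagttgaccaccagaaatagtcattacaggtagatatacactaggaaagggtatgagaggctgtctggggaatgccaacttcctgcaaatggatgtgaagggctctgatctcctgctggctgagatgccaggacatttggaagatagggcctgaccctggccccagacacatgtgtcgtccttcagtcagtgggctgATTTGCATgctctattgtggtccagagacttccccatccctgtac
Cd22, chr7:30879029-30879176, minus strand: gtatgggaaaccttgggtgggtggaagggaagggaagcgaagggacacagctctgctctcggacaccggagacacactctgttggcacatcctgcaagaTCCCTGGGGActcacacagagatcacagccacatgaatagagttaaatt
The Vpreb3 stretch lies within the longer span that GENCODE M21 gives the gene and outside its exons. Motifs were searched on both strands in the 250 bases before each start. The Ebf1 core was in 2 of the 21 windows of the identity genes (Cd22 and Foxo1) and in 0.779% of all 32851 windows. Its relaxed form CCCNNGGG without the outer letters, which every match to the core also holds, was in 4 of the 21 windows and in 11.8% of all windows. CAGGTG was in 6 of the 21 and 17.2% of all, and ATTTGCAT was in 2 of the 21 and 1.60% of all. CAGGTG and ATTTGCAT were added after the sequences had been seen, and a match is a description of the letters only.

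The libraries held 126031142 UMIs in 6140 cKO barcodes and 152398639 UMIs in 9125 WT barcodes, with medians of 8217 and 7919 UMIs per barcode. The quality limits kept 5506 cKO and 8171 WT barcodes. Slc31a1 was at 15.2 CPM (UMIs of a gene per 1000000 UMIs summed over the barcodes counted) in collagen-high cKO barcodes, against 43.0 CPM in those of WT. In macrophage barcodes it was at 72.2 CPM in cKO and 68.2 CPM in WT. Members had 5 Slc31a1 UMIs in cKO and 8 in WT (20.4 and 23.1 CPM), a cKO over WT ratio of 0.884 with a 95% interval of 0.228 to 3.06. The reads near the 3′ end that the kit captures need not come from the floxed exons, whose position the sources used here do not give. With 1 library per genotype there is no test across samples: intervals in this text are exact, cover counting error only, and compare these libraries and not the genotypes.

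Members were shallower than the other kept barcodes, whose medians were 9916 UMIs in cKO and 9354 in WT. They had 1665 to 21288 UMIs in cKO (median 3675.5) and 2103 to 41845 in WT (median 4542), and a median of 1796.5 genes in cKO and 2146 in WT. Summed, they held 244703 UMIs in cKO and 346068 in WT. The deepest member of the WT library held more UMIs than the deepest of cKO.

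The label B-lineage held against genes that the rule did not use. Pax5, the B-cell commitment factor, was detected in 54 of 56 cKO members and 42 of 43 WT members, against 1 of 2305 cKO (0.0434%) and 2 of 2479 WT (0.0807%) macrophage barcodes, which were deeper (medians 8804 and 10260 UMIs). Pooled over the libraries it stood at 1082 CPM in members and 0.334 CPM in all other kept barcodes. Ms4a1 was at 945 against 0.382 CPM, Blk, a B-cell Src-family kinase, at 449 against 0.294 CPM, and Fcmr, a receptor for IgM, at 538 against 0.185 CPM. Cd79a, a gene of the rule, was at 1550.5 against 0.80 CPM.

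Of 853 genes at 200 CPM or more in members, 103 were at least 10-fold above the other kept barcodes. Among the 20 leading genes were also the B-cell surface protein gene Ly6d (1667 against 1.73 CPM), the transmembrane protein gene Tmem163 (1275 against 0.843 CPM) and the lambda constant gene Iglc1 (1572.5 against 3.68 CPM). Further leaders were the nuclear factor gene Aff3 (2434 against 14.0 CPM), the Ikaros-family factor Ikzf3 (907 against 2.35 CPM) and Bank1, an adaptor downstream of the B-cell receptor (1298 against 10.5 CPM). Bcl11a, a transcription factor of early and mature B cells, had 755 against 4.70 CPM. Cd74, the invariant chain of MHC class II, had 2190 against 28.4 CPM. Ebf1 was less restricted, since other kept barcodes had 421 CPM in cKO and 484 CPM in WT, against 5970 CPM in cKO members and 3473 CPM in WT members. These differences describe cells that were chosen by their counts and carry no test.

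Markers of other cell types were low or at 0. All 10 genes of a T and NK list, the T-cell receptor chain gene Cd3e among them, had 0 UMIs in all 99 members. The erythroid list had 0 UMIs in cKO members and 4 in WT members, all in 1 cell. Of the macrophage list (Lyz2, C1qa, Csf1r and others, 12 genes) a member held 0 to 86 UMIs in cKO (median 2) and 0 to 188 in WT (median 6). Lyz2, C1qa and Csf1r all had UMIs in some members, while the Fc receptor gene Fcgr1 had 0 in all. Above 50 macrophage-list UMIs per 10000 lay 1 cKO member (91.1) and 1 WT member (85.2). A mesenchymal list of 12 genes (Col3a1, Prrx1, Dcn and others) gave 0 to 7 UMIs in a cKO member (median 1) and 1 to 14 in a WT member (median 3). Values without the 2 members above 50 are given beside the results on cell division genes, and the part of such RNA in the other results was not tested.

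**Figure D1:**
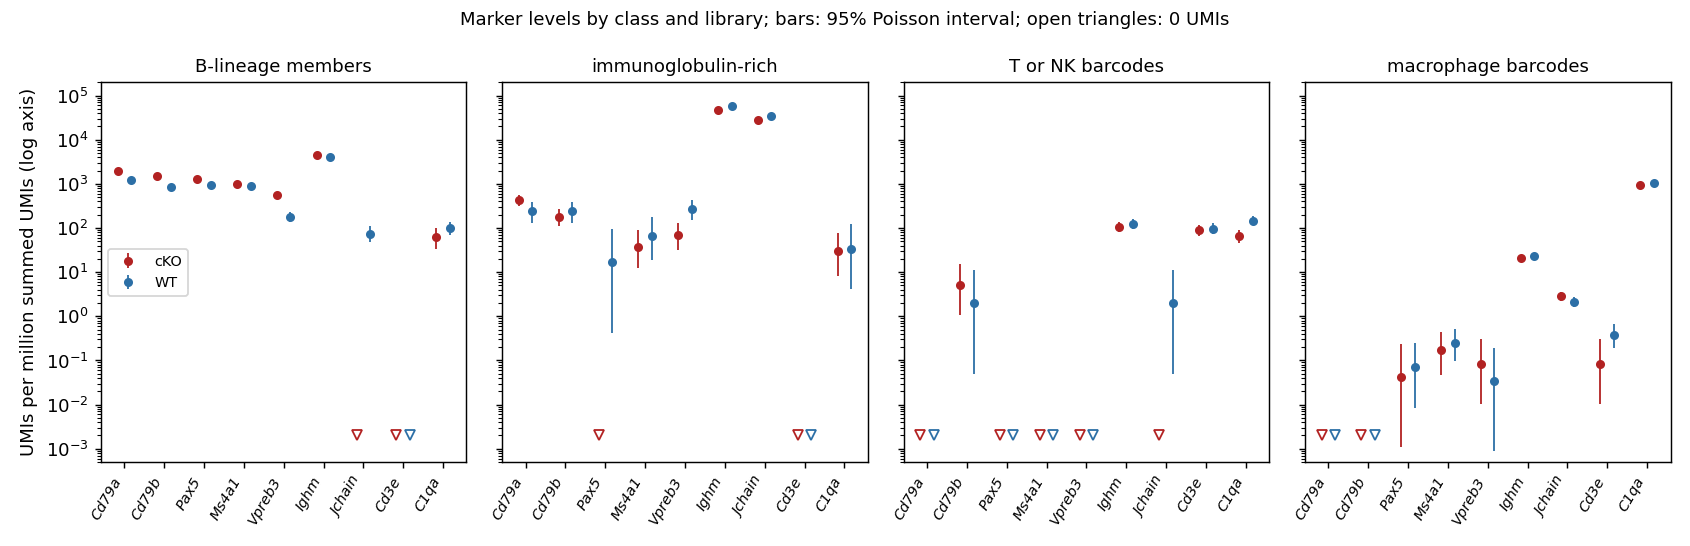
Summed level (CPM, log axis) of 9 marker genes in B-lineage members, immunoglobulin-rich barcodes, T or NK barcodes and macrophage barcodes, with cKO left of WT in each pair. Bars are 95% Poisson intervals and open triangles mark 0 UMIs: members held Pax5 and Ms4a1, had 0 Cd3e UMIs, and had Ighm below the immunoglobulin-rich barcodes.

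Members took a larger share of the cKO library than of the WT library when all kept barcodes were counted. The share was 1.02% of 5506 in cKO (56 barcodes, interval 0.769 to 1.32%) and 0.526% of 8171 in WT (43 barcodes, 0.381 to 0.708%), a ratio of 1.93 (1.28 to 2.95). The denominators differed in makeup, since 1750 cKO and 4413 WT barcodes were collagen-high. Over the barcodes low in collagen, 3756 in cKO and 3758 in WT, the shares were 1.49% (1.13 to 1.93%) and 1.14% (0.829 to 1.54%), and their ratio was 1.30 (0.860 to 1.99), an interval that holds 1. The excess therefore depended on the denominator. Immunoglobulin-rich barcodes numbered 6 in cKO and 4 in WT, and T or NK barcodes 55 in cKO and 51 in WT.

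The earliest B-cell genes were nearly absent from the members of both libraries. Igll1 and Vpreb2, which encode surrogate light chain proteins of pro-B and pre-B cells, had 0 UMIs in all 99 members. Vpreb1, of the same complex, had 0 UMIs in cKO and 1 in WT, and Dntt, the enzyme that adds bases at heavy chain joints in pro-B cells, had 1 in each. Rag2 had 1 UMI in cKO and 0 in WT. Rag1 had 7 UMIs in cKO and 2 in WT. With at least 3 UMIs over these 6 genes as the criterion, 0 of 56 cKO members and 0 of 43 WT members passed. A limit of 3 barcodes allows shares of up to 5.36% and 6.98%, and the exact intervals reach 6.38% and 8.22%. At 2 UMIs, with under 2 UMIs of the later genes listed next, the share was 5.36% in cKO and 0 in WT.

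Most members carried genes of later B cells. A sum over Ms4a1, Ighd, Fcer2a, Fcmr and Cr2 ran from 0 to 28 UMIs per barcode in cKO (median 9) and from 0 to 46 in WT (median 11). The plot of late markers against class II genes shows a dense group with both and a separate corner with almost neither. That corner, called the late-low range here, was set after the values had been seen, at under 3 UMIs of each sum, so it is a description and not a class. It held 9 of 56 cKO members (16.1%, 7.62 to 28.3%) and 2 of 43 WT members (4.65%, 0.568 to 15.8%), and the intervals of the shares overlap. The shares moved with the Cd79 limit: at 3 UMIs they were 22.7% in cKO and 17.5% in WT, and at 10 UMIs 6.82% and 0.

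**Figure D2:**
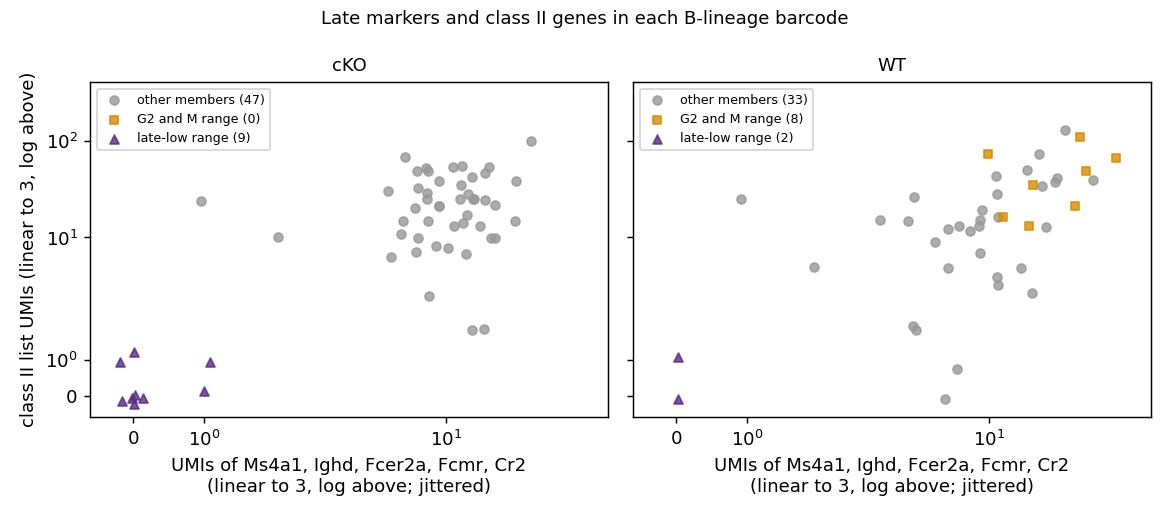
Each point is 1 member, with cKO left and WT right: the x axis is the UMIs of 5 late B-cell genes and the y axis the UMIs of the class II list (both linear to 3 and log above, with jitter). The 9 cKO and 2 WT triangles in the lower left corner form the late-low range, and squares mark the 8 WT members of the G2 and M range.

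Barcodes of the late-low range were shallow, at 1665 to 3423 UMIs in cKO (median 2475) and 2117 and 2510 UMIs in WT. Since the range was set on these sums, members of the same depth outside it are given as a description only: 15 cKO barcodes of up to 3423 UMIs had 1 to 16 late-gene UMIs (median 7) and 2 to 67 class II UMIs (median 21), and 14 WT barcodes had 1 to 11 (median 6) and 0 to 26 (median 8.5). After every member was thinned to 2410 UMIs, with 6 cKO and 4 WT members too shallow and left out, the range held 5 of 50 cKO members (10%) and 1 of 39 WT members (2.56%). The members left out included 4 of the 9 cKO and 1 of the 2 WT barcodes of the range, and 0 members entered it by thinning. The macrophage list gave 0 to 6 UMIs in the cKO barcodes of the range.

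The late-low barcodes held some B-cell identity genes and lacked others, and they carried some genes of younger B cells that the range was not set on. In the 9 cKO barcodes Pax5 was at 1213 CPM, against 1272 CPM in the 47 cKO members outside both ranges (ratio 0.953, 0.617 to 1.42). Ebf1 was higher, at 11142 against 5453 CPM (2.04, 1.78 to 2.34), and Ly6d likewise, at 3639 against 1771 CPM (2.05, 1.60 to 2.62). Blnk, the adaptor that links the pre-B-cell and B-cell receptors to downstream kinases, was at 3190 against 670 CPM (4.76, 3.54 to 6.36). Of the same identity list, Bank1 and Cd22 had 0 UMIs in the 9 cKO barcodes, and Ralgps2, a guanine exchange factor, was at 223 against 682 CPM over both libraries (0.327, 0.119 to 0.722).

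Vpreb3, which encodes a protein that associates with immunoglobulin chains in pre-B and immature B cells, had 1, 2, 5, 5, 6, 6, 11, 11 and 15 UMIs in these 9 cKO barcodes. That is 2786 CPM against 337 CPM in the other cKO members, a ratio of 8.26 (5.80 to 11.7). The 2 WT barcodes had 3 and 4 UMIs of Vpreb3, or 1513 CPM against 246 CPM in the other WT members (6.14, 2.33 to 13.8). All 11 barcodes of the range thus held this gene, which 31 of the 47 other cKO members and 21 of the 33 other WT members outside the ranges also held at some level.

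All Rag1 UMIs of the members lay in this range, 7 in 4 cKO barcodes and 2 in the 2 WT barcodes, and none of 2305 cKO or 2479 WT macrophage barcodes had one. Against a floor of 3 UMIs in the other cKO members, Rag1 was at least 23.3-fold higher in the cKO barcodes of the range, with a counting interval of the ratio from 14.4 upward. Erg, an ETS-family factor of early B cells and stem cells, had 8 UMIs in 5 cKO barcodes of the range and 0 in the other members, at least 26.7-fold higher against the same floor (counting interval from 17.1 upward), although 1.56% of cKO and 2.50% of WT macrophage barcodes held an Erg UMI. Il7r, the interleukin 7 receptor chain, had 7 UMIs against 4 in the other cKO members (17.5-fold by CPM, 4.45 to 81.5), and an Il7r UMI was also in 18.1% of cKO and 17.2% of WT macrophage barcodes. Il2ra, the CD25 chain used to mark pre-B cells in mouse marrow, had 19 UMIs against 11 (17.3-fold, 7.81 to 40.2), with a UMI in 0.304% and 0.242% of macrophage barcodes. In the 2 WT barcodes Il2ra had 1 UMI (2.83, 0.0667 to 18.9). Not all genes of younger B cells were higher. Cd93, a receptor of immature B cells, had 3 UMIs against 18 in cKO (1.67, 0.314 to 5.71) and 0 in the 2 WT barcodes. Cd24a, which falls as B cells mature, had ratios of 0.736 (0.288 to 1.58) in cKO and 1.07 (0.218 to 3.23) in WT. The 19 genes of the early list gave 7 to 21 UMIs per cKO barcode of the range (median 14). The other cKO members had 0 to 14 (median 2), so the cKO groups overlapped from 7 to 14 UMIs. In WT the 2 barcodes had 8 and 10 such UMIs. That lay within the 0 to 16 of the WT members outside both ranges (median 3) and the 1 to 24 of the G2 and M range.

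Further genes led in the range when all genes were ranked, and they are named after their values were seen. Atp1b1, a subunit of the sodium and potassium pump, had 55 UMIs in 8 of 9 cKO barcodes against 6 UMIs in 6 of 47 (91.6-fold by CPM, 39.5 to 260). Xrcc6, the Ku70 protein of end joining at DNA breaks, had 28 UMIs in 9 of 9 against 9 UMIs in 5 of 47 (31.1-fold, 14.3 to 74.9), and 12.1% of cKO and 14.7% of WT macrophage barcodes also held an Xrcc6 UMI. Bcl2l1, which encodes the survival protein Bcl-xL, had 16 UMIs in 7 of 9 against 6 UMIs in 4 of 47 (26.7-fold, 9.91 to 83.2). Bcl2, its relative, went the other way, with 0 UMIs in the range against 87 UMIs in 23 of 47. Against a floor of 3 UMIs that is at least 2.90-fold lower, with a counting interval of the ratio up to 0.433. In the 2 WT barcodes Atp1b1 had 6 UMIs and Xrcc6 5 UMIs, 36.9-fold (9.85 to 138) and 18.4-fold (4.94 to 59.2) above the other WT members, while Bcl2l1 had 0.

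Several further genes were low in the range, named after their values were seen. Bank1 had 0 UMIs in the 9 cKO barcodes against 327 UMIs in 45 of 47, at least 10.9-fold lower, and the 2 WT barcodes had 1 UMI. S1pr1, the receptor that guides lymphocytes out of tissue, had 0 UMIs against 63 in 33 of 47 (at least 2.10-fold lower, up to 0.603). Cd22, an inhibitory receptor of B cells, had 0 against 58 in 33 of 47 (at least 1.93-fold lower, up to 0.656). Plac8 had 1 UMI against 217, a ratio of 0.0461 (0.00116 to 0.259), and Blk 1 UMI against 124, a ratio of 0.0806 (0.00202 to 0.457). Ms4a1, Fcmr and Cd74 were at 0 in the 9 barcodes, which the setting of the range brings with it. Other B-cell surface genes were close to the members outside the ranges over both libraries, Cd37 at a ratio of 1.20 (0.672 to 2.00), Cd72 at 1.15 (0.514 to 2.27) and Siglecg at 0.776 (0.279 to 1.74).

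Members with high levels of cell division genes were found in the WT library and not in the cKO library. A sum over 22 genes of the G2 and M phases reached 40 UMIs per 10000 in 0 of 56 cKO members and in 8 of 43 WT members (18.6%, 8.39 to 33.4%). For cKO a limit of 3 barcodes allows a share of up to 5.36%, and the exact interval reaches 6.38%. The 8 WT values ran from 45.2 to 233 per 10000 (median 68.0). The highest values outside were 22.2 and 21.8 in cKO and 14.3 in WT, so the limit, chosen after the values had been seen, lay in a gap. Those 8 barcodes are called the G2 and M range. Below the limit of the rule such barcodes did exist in cKO: with at least 3 Cd79 UMIs in place of 5, the share was 3.03% in cKO and 19.3% in WT. Without the members above 50 macrophage-list UMIs per 10000 it was 0 in cKO and 16.7% in WT.

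Depth moved with this result, since the 8 WT barcodes had 8626 to 41845 UMIs (median 19754) and together held 49.4% of all WT member UMIs. After thinning to 2410 UMIs the range held 0 of 50 cKO members and 7 of 39 WT members (17.9%). With at least 3 G2 and M UMIs as the criterion, 5 of 50 thinned cKO members (10%, 3.33 to 21.8%) and 9 of 39 thinned WT members (23.1%, 11.1 to 39.3%) passed, with 15 of 56 (26.8%) and 19 of 43 (44.2%) before thinning. The thinned intervals overlap under this looser criterion. An Mki67 UMI was found in 2 of 56 cKO members (3.57%) and 12 of 43 WT members (27.9%). Macrophage barcodes, which were deeper (medians 8804 and 10260 UMIs), held one in 850 of 2305 in cKO (36.9%) and 934 of 2479 in WT (37.7%).

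**Figure D3:**
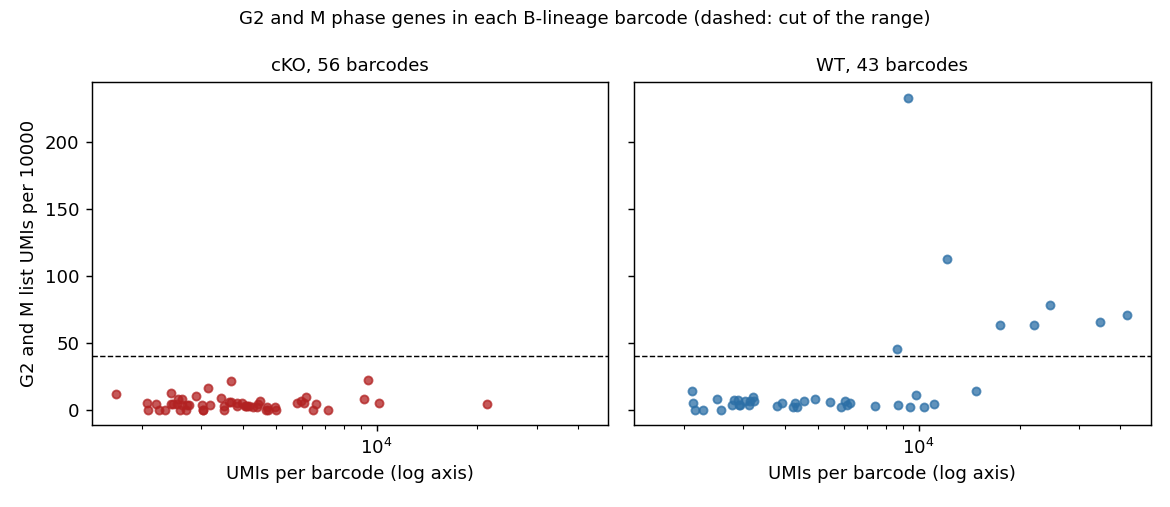
UMIs of 22 G2 and M phase genes per 10000 UMIs (y axis) against the UMIs of each member (x axis, log), with 56 cKO members left and 43 WT members right. The dashed line at 40 has 0 cKO and 8 WT barcodes above it, and those 8 have 8626 or more UMIs.

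Mki67, the Ki-67 protein of dividing cells, had 6, 12, 14, 21, 26, 36, 43 and 66 UMIs in the 8 WT barcodes, against 4 UMIs in the 33 WT members outside both ranges. Top2a, the topoisomerase of dividing cells, had 217 UMIs against 7. Pclaf, a partner of the replication clamp, had 153 UMIs against 1, and the histone gene Hist1h1b had 150 against 3. Mki67 and Top2a were among the genes that set the range, while Pclaf and Hist1h1b were not.

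Several B-cell genes stood lower in CPM in these 8 barcodes than in the other WT members. Pax5 was at 644 against 1273 CPM (ratio 0.506, 0.398 to 0.639) and Ebf1 at 1504 against 5261 CPM (0.286, 0.248 to 0.329). All 8 had UMIs of Pax5, Ebf1 and Ms4a1. Cd79a and Cd79b are not compared here, since a fixed UMI minimum admits deep barcodes at a lower CPM than shallow ones. Whether that minimum also shaped the CPM of other B-cell genes was not tested. Pax5 had 110 UMIs in the 8 deep barcodes and 217 in the 33 other WT members, so its lower CPM does not mean fewer UMIs per barcode. Ighd, which encodes the IgD heavy chain, was at 76.1 against 334 CPM (0.228, 0.114 to 0.421), and Cd74 at 1211 against 2305 CPM (0.525, 0.442 to 0.623). Igkc was at 3019 against 3014 CPM (1.00, 0.885 to 1.13). Bcl11a was higher, at 1199 against 850 CPM (1.41, 1.13 to 1.76), and so was Herpud1, a gene of the endoplasmic reticulum stress response, at 252 against 106 CPM (2.38, 1.35 to 4.39). The macrophage list was at 4.01 to 85.2 per 10000 UMIs there (median 5.75).

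Summed over all members, 5084 genes with at least 20 UMIs in the libraries together were compared. At least 2-fold higher in cKO with an interval that leaves out 1 were 174 genes (3.42% of those compared), and at least 2-fold lower were 362 (7.12%). The lower genes with the smallest ratios were cell division genes: Mki67 had 2 UMIs in cKO and 228 in WT (ratio 0.0124, 0.00149 to 0.0453), Top2a 8 and 224 (0.0505, 0.0215 to 0.101), and Pclaf 5 and 154 (0.0459, 0.0147 to 0.110). The other 7 of the 10 smallest ratios were those of Nusap1, Hist1h1b, Hist1h2ap, Kif23, Kif11, Hist1h4d and Cenpf, at 0.0321 to 0.0629. Of the G2 and M list, 14 of 15 compared members were called lower and 0 higher, with a median log2 ratio of -3.14, and of an S phase list 10 of 13 were called lower and 0 higher, with a median of -1.72. The median over all genes was -0.05. The sizes of these ratios depended on the member rule. With at least 3 Cd79 UMIs the ratio was 0.137 for Mki67, 0.151 for Top2a and 0.230 for Pclaf, and the median of the G2 and M list was -1.80. With no collagen limit the ratios were 0.150, 0.173 and 0.299 and the median -0.60. Without the members above 50 macrophage-list UMIs per 10000, Mki67 was at 0.00638, Top2a at 0.0212 and Pclaf at 0.0462, and the median was -3.60.

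The same comparison is given without the 8 WT barcodes. Those were picked on the G2 and M list, Mki67 and Top2a included. The loss of that list's differences without them was therefore set in advance and is a description only. Without the G2 and M range, 3899 genes could be compared, of which 111 were higher (2.85%) and 87 lower (2.23%) in cKO. Mki67 then had 2 UMIs in cKO and 4 in WT (0.358, 0.0324 to 2.5), and 1 gene of the G2 and M list and 5 of the S phase list still had 20 UMIs, with 0 called in either direction. Without both ranges, 47 cKO and 33 WT members and 3657 genes remained, of which 90 were higher (2.46%) and 83 lower (2.27%).

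**Figure D4:**
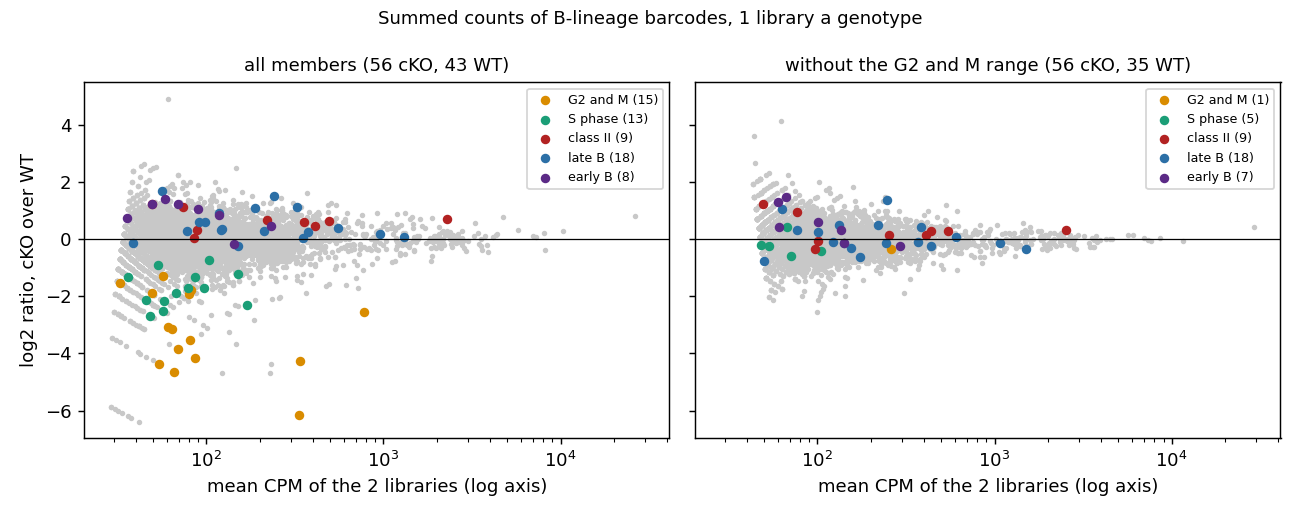
Log2 ratio of cKO over WT (y axis) against the mean CPM of the libraries (x axis, log) for each gene compared, over all members (left) and without the G2 and M range (right). Coloured points are genes of 5 lists, with the number plotted in the legend: 15 G2 and M genes lie below 0 on the left, and 1 remains on the right.

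Of the 4 marker genes, all had ratios above 1 over all members, and the ratios came closer to 1 without both ranges. Vpreb3 (chromosome 10, 75943057 to 75949657, GRCm38) had 137 UMIs in cKO and 63 in WT, or 560 and 182 CPM, a ratio of 3.08 (2.27 to 4.21). Without both ranges it had 75 and 42 UMIs, and the ratio was 1.37 (0.926 to 2.05). The late-low range alone held 62 of the 137 cKO UMIs.

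Cd79a (chromosome 7, 24897381 to 24902197) had 491 UMIs in cKO and 425 in WT, or 2006 and 1228 CPM (ratio 1.63, 1.43 to 1.86), and 1.26 (1.08 to 1.47) without both ranges. Cd79b (chromosome 11, 106311341 to 106314762) had 379 and 292 UMIs, a ratio of 1.84 (1.57 to 2.15), and 1.15 (0.967 to 1.36) without both ranges. Both genes set membership, so their levels are descriptions. Ms4a1 (chromosome 19, 11249675 to 11266241) had 249 and 309 UMIs, a ratio of 1.14 (0.961 to 1.35), and 0.974 (0.804 to 1.18) without both ranges. Ms4a1 thus differed by less than counting error in either set of cells. It is among the genes that set the late-low range, so the second ratio is shaped by that choice.

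The wider identity list moved in the same way. Of its 24 genes, 21 had log2 ratios above 0 over all members, with a median of 0.32 and 0 called higher, and 9 of 24 were above 0 without both ranges, with a median of -0.12 beside -0.0017 for all genes. Pax5 had 310 UMIs in cKO and 329 in WT, a ratio of 1.33 (1.14 to 1.56) over all members and 1.00 (0.835 to 1.20) without both ranges. Ebf1 was at 5970 and 3473 CPM, a ratio of 1.72 (1.59 to 1.86), and then 1.04 (0.950 to 1.13). With no collagen limit, which adds 5 cKO and 2 WT barcodes, list medians over all members turned in sign, to -0.66 for identity, -0.62 for late, -0.40 for class II, -0.49 for receptor signalling, -0.37 for survival and -0.32 for niche receptor genes. The copper median was then 0.26 and the heat shock median 0.54.

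Bcl11a was the 1 gene of the 24 of the identity list that was called, and it was called lower in all 3 sets of cells. Of all genes, 7.12% were called lower over all members, 2.23% without the G2 and M range and 2.27% without both ranges. It had 96 UMIs in 32 cKO members and 350 UMIs in 29 WT members, or 392 and 1011 CPM, a ratio of 0.388 (0.306 to 0.487). Without both ranges it was at 418 and 850 CPM, a ratio of 0.492 (0.375 to 0.642). Cd24a, a surface protein that falls as B cells mature, was at 417 and 647 CPM (0.644, 0.505 to 0.817), and at 427 and 604 CPM without both ranges (0.707, 0.529 to 0.943). Btk, the kinase downstream of the receptor, had the opposite direction, at 346 and 211 CPM without both ranges (1.64, 1.09 to 2.51).

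Of the 19 early genes, 8 could be compared over all members, 7 of them above 0 with a median log2 ratio of 0.96, and 4 were called higher (3.42% of all genes were). The median was -0.0058 with no collagen limit. Sox4, a transcription factor of progenitors, had 24 UMIs in cKO and 14 in WT (2.42, 1.20 to 5.07). Cd93, a receptor of immature B cells, had 21 and 11 (2.70, 1.24 to 6.20), and Il2ra had 30 and 20 (2.12, 1.17 to 3.94). Without both ranges 5 could be compared, 1 of them above 0, with a median of -0.31 and 0 called. Il2ra then had a ratio of 0.649 (0.263 to 1.57), on 11 and 13 UMIs. Akap12, a scaffold for protein kinase A, was lower there, at 162 and 287 CPM (0.563, 0.356 to 0.884), a change of direction from 1.37 (0.963 to 1.96) over all members.

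Late B-cell genes had a median log2 ratio of 0.35 over all members, with 16 of 18 above 0 and 4 called higher, where 3.42% of all genes were. Without both ranges 8 of 18 were above 0, the median was -0.02 and 1 was called higher, where 2.46% of all genes were. That gene was Cd83, a surface protein that stabilises MHC class II and appears on activated B cells. Cd83 had 88 UMIs in 22 cKO members and 43 UMIs in 16 WT members, or 360 and 124 CPM, a ratio of 2.89 (1.99 to 4.27). Without both ranges it was at 396 and 141 CPM, a ratio of 2.81 (1.77 to 4.62). Ighd had 109 and 70 UMIs, a ratio of 2.20 (1.62 to 3.02) over all members and 1.44 (1.03 to 2.02) without both ranges. Ighd is among the late genes that set the late-low range, so the second ratio is shaped by that choice. Without the G2 and M range alone, 8 of 18 late genes were above 0, with a median of -0.09. S1pr1 had 63 and 41 UMIs (2.17, 1.44 to 3.30), and without both ranges 1.51 (0.971 to 2.39), with 1 inside the interval.

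Most class II genes stood above 0 in both sets of cells, although the second set was cut on class II counts. Over all members 9 of 9 compared genes had log2 ratios above 0, with a median of 0.64 and 2 called higher (H2-DMb2 and H2-Oa), beside 3.42% of all genes. Without both ranges 8 of 9 were above 0, with a median of 0.39 and 0 called. The late-low range has under 3 class II UMIs by its setting and held 9 cKO and 2 WT members. Leaving it out therefore tilts this comparison towards cKO. Without the G2 and M range alone, 7 of 9 were above 0, with a median of 0.29 and 0 called. Cd74 had 693 UMIs in cKO and 601 in WT, or 2832 and 1737 CPM (1.63, 1.46 to 1.82), and 3115 and 2305 CPM without both ranges (1.35, 1.19 to 1.53). H2-Aa, the class II alpha chain, was at 661 and 499 CPM there (1.33, 1.01 to 1.75), and its partner H2-Ab1 at 530 and 405 CPM (1.31, 0.966 to 1.79). Ciita, the transactivator of these genes, was at 85.8 and 83.8 CPM over all members, a ratio of 1.02 (0.555 to 1.86). Macrophages also express class II genes, and macrophage-list UMIs per member had a median of 2 in cKO and 6 in WT.

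Receptor signalling genes gave no call. Of 20 compared over all members 14 were above 0, with a median of 0.48 beside -0.05 for all genes and 0 called, and of 19 without both ranges 13 were above 0, with a median of 0.08 and 0 called. Nfatc1, a calcium-responsive transcription factor, was at 605 and 378 CPM (1.60, 1.25 to 2.04), and at 665 and 452 CPM without both ranges (1.47, 1.11 to 1.97). Of the immediate-early list, 9 of 10 genes were above 0 over all members with a median of 0.61, and 5 of 7 without both ranges with a median of 0.61. Dusp2, a phosphatase of MAP kinases, was called higher in both sets, with 44 UMIs in 26 cKO members and 18 UMIs in 9 WT members (3.46, 1.96 to 6.36), and 3.32 (1.58 to 7.80) without both ranges. Egr1, a zinc finger factor, had 15 and 8 UMIs (2.65, 1.05 to 7.22), and without both ranges 1 lay inside its interval (2.87, 0.916 to 11.9).

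Outside the lists, the genes with the largest ratios by the fixed rule included several spread over many cells. Irs2, an adaptor of the insulin receptor, had 44 UMIs in 17 cKO members and 15 UMIs in 14 WT members, a ratio of 4.15 (2.27 to 8.02), and 2.81 (1.46 to 5.85) without both ranges. Smad7, an inhibitor of TGF-beta signalling, had 32 UMIs in 19 cKO members and 11 UMIs in 9 WT members (4.11, 2.02 to 9.05), and 2.73 (1.27 to 6.49) without both ranges. Atp1b1 had 61 and 15 UMIs (5.75), and without both ranges 6 and 6 UMIs (0.767, 0.205 to 2.87), so its difference went with the late-low barcodes. Bbof1 had 29 UMIs in 3 cKO members and 1 UMI in 1 WT member, a ratio of 41.0 (6.80 to 1675), and 51.7% of the cKO UMIs came from 1 barcode. The remaining 6 were Trim11, Mreg, Il4i1, Coq8a, Pde2a and Snx8, with ratios of 3.81 to 4.95. Il4i1 had 29 UMIs in 5 cKO members, 62.1% of them in 1 barcode, and Mreg had 50% of its 8 WT UMIs in 1 barcode. Without both ranges Pde2a was at 1.63 (0.666 to 4.36), and the others of these 6 kept intervals above 1.

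Without both ranges the leading genes were partly others. Bhlhe40, a transcription factor of lymphocyte activation, had 43 UMIs in cKO and 10 in WT (3.30, 1.63 to 7.36). Nfkbid, a nuclear regulator of NF-kappa B, had 38 and 7 (4.16, 1.84 to 11.0), with 42.5% of its cKO UMIs over all members in 1 barcode. Lower in cKO were Nedd4, a ubiquitin ligase, with 7 and 30 UMIs (0.179, 0.0663 to 0.416), and Sox5, a transcription factor, with 32 and 85 UMIs (0.289, 0.186 to 0.438). Prkdc, the catalytic subunit of DNA-dependent protein kinase, had 7 and 23 UMIs (0.233, 0.0845 to 0.562), and Ly6a, the Sca-1 surface protein, had 13 and 35 (0.285, 0.138 to 0.552). The 13 Ly6a UMIs came from 3 cKO members. Rasgrp1, an activator of Ras, had 11 and 29 UMIs (0.291, 0.131 to 0.600). The other higher genes of the 20 were Bbof1, Mreg, Haao, Zc3h12c, Ncbp3, Zmym4, Dusp2 and Pard3b, at ratios of 3.13 to 22.2, and the other lower ones were Senp7, Slc15a4, Nxpe3, Lrmda and Apba1, at 0.219 to 0.291.

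Immunoglobulin genes set an upper limit of the rule, so their levels are descriptions. Ighm, the mu heavy chain, was found in all 56 cKO and all 43 WT members, with 3 to 51 UMIs in cKO (median 19) and 1 to 146 in WT (median 21). Its level was 4634 CPM in cKO and 4112 CPM in WT (1.13, 1.04 to 1.22), and the ratio was 1.03 (0.936 to 1.13) without both ranges. Ighd amounted to 9.61% of the Ighm UMIs in cKO and 4.92% in WT. Jchain, which joins IgM pentamers in secreting cells, had 0 UMIs in cKO members and 26 in WT members, 24 of them in 1 barcode. Of the immunoglobulin list 8 genes could be compared, 3 above 0 and 5 below with a median log2 ratio of -0.20. Called were 1 higher (Ighd) and 2 lower (Jchain and Ighg3), beside 3.42% higher and 7.12% lower of all genes. Without the G2 and M range, and also without both ranges, 6 could be compared and 0 were called.

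Kappa and lambda constant genes were found together in most members. Igkc had 0 to 74 UMIs per cKO member (median 9) and 0 to 216 per WT member (median 13). Both Igkc and the sum of Iglc1, Iglc2 and Iglc3 reached 3 UMIs in 33 of 56 cKO members (58.9%, 45.0 to 71.9%) and 31 of 43 WT members (72.1%, 56.3 to 84.7%). Igkc alone reached it in 8 cKO (14.3%) and 2 WT members (4.65%), and Iglc alone in 12 cKO (21.4%) and 10 WT members (23.3%). In textbook B cells a single light chain is expressed as protein, and RNA of both constant genes in 1 barcode does not show that 2 proteins were made.

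Macrophages should lack these genes, so macrophage barcodes are given for comparison, and whether their UMIs were free RNA was not tested. At least 1 Igkc UMI was in 29.8% of cKO and 20.1% of WT macrophage barcodes, and at least 3 were in 0.911% and 0.484%. At least 1 Iglc UMI was in 1.30% and 4.84%, and at least 3 were in 0 of 2305 and 0 of 2479. The members' Iglc shares were far above these. Over all members the Iglc genes took 56.4% of light chain UMIs in cKO (823 of 1459) and 55.0% in WT (1257 of 2287). The Iglc genes are near-identical, so their split is uncertain: Iglc1 had a ratio of 1.07 (0.941 to 1.22), Iglc2 of 0.787 (0.673 to 0.920) and Iglc3 of 0.872 (0.714 to 1.06).

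Igkc was absent where lambda RNA was present in some barcodes. Igkc was at 0 with 10 or more Iglc UMIs in 6 of 56 cKO members (10.7%) and 5 of 43 WT members (11.6%). The late-low barcodes stood out in Igkc, with 11 UMIs in 2 of 9 cKO barcodes against 625 UMIs in 41 of the 47 others (ratio of CPM 0.176, 0.0874 to 0.317). Both WT barcodes had 0 UMIs against 514 in 30 of 33. Against a floor of 3 UMIs that is at least 4.65-fold lower, with a counting interval of the ratio up to 0.265. The Iglc genes of the late-low barcodes had 64 UMIs in 9 of 9 cKO barcodes (0.843, 0.642 to 1.09) and 34 in the 2 WT barcodes (1.90, 1.31 to 2.68). The cKO UMIs were uneven, at 1, 2, 2, 2, 3, 4, 7, 11 and 32 per barcode, so 1 barcode weighed heavily in that ratio. Ighm was at 3864 against 4711 CPM in cKO (0.820, 0.650 to 1.02).

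**Figure D5:**
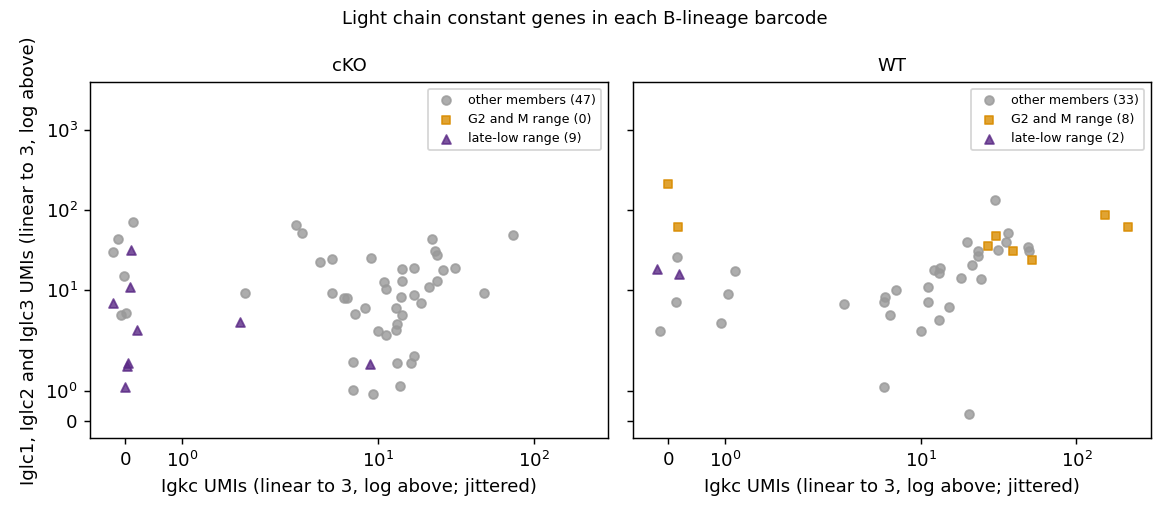
UMIs of Igkc (x axis) against UMIs of Iglc1, Iglc2 and Iglc3 (y axis) in each member, with cKO left and WT right, linear to 3 and log above, with jitter. Most points have both, 7 of 9 cKO and 2 of 2 WT late-low triangles lie at 0 on the x axis, and squares mark the 8 WT members of the G2 and M range.

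Copper genes did not pass the 2-fold call. Of 15 genes 6 could be compared over all members, 2 of them above 0, with a median log2 ratio of -0.34 and 0 called in either direction. The copper chaperone for cytochrome c oxidase, Cox17, was at 102 and 159 CPM (0.643, 0.384 to 1.05), and the chaperone Atox1 at 102 and 127 CPM (0.804, 0.471 to 1.34). The superoxide dismutase Sod1 was at 89.9 and 127 CPM (0.707, 0.404 to 1.21). Prrx1 itself had 3 UMIs in cKO members and 1 in WT members, against 439 and 444 CPM in collagen-high barcodes, and all 4 compared genes of the mesenchymal list were below 0, with a median of -0.67.

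Other lists gave few calls. Survival genes had 7 of 7 above 0 over all members with a median of 0.37 and 0 called, and 4 of 5 above 0 without both ranges with a median of 0.13 and 0 called. Niche receptor genes, those that receive chemokine, cytokine and adhesion signals, had 8 of 10 above 0 with a median of 0.60 and 2 called higher, S1pr1 among them (3.42% of all genes), and 6 of 9 with a median of 0.27 and 0 called without both ranges. Cxcr4, the receptor for Cxcl12, had 28 and 21 UMIs (1.89, 1.03 to 3.49), and 1.30 (0.625 to 2.80) without both ranges. Of a plasma cell list 2 of 8 were above 0 with a median of -0.28 and 1 called lower (7.12% of all genes), and without both ranges 5 of 7 were above 0 with a median of 0.29 and 0 called. The called gene was Creb3l2, a factor of the secretory pathway, with 4 UMIs in cKO and 36 in WT (0.157, 0.0406 to 0.438). Heat shock genes had 0 of 6 above 0 over all members with a median of -0.56, and 2 of 6 without both ranges with a median of -0.25. Hsp90ab1, a chaperone, had a ratio of 0.703 (0.605 to 0.816), and 0.918 (0.757 to 1.11) without both ranges.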

How the data were processed

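The 10x Genomics Chromium kit v3, which captures mRNA at its 3' end, was used for both libraries, per the labels. The deposited tables hold raw counts of UMIs for each gene in each barcode. Per the file headers they come from Cell Ranger 7.1.0. The submitters' processing notes name the build mm10 (GRCm38), Cell Ranger and Seurat. How intronic reads were treated was not given in the sources used here.

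Members, gene lists and limits were chosen with earlier results of these data known. Counts were summed per library over members. Genes with at least 20 summed UMIs were compared, with log2 ratios on a prior of 1 CPM. A call needed a ratio of at least 2-fold and an exact conditional binomial 95% interval that left out 1. Levels had Poisson and shares Clopper-Pearson intervals, and a count of 0 was read against a floor of 3 UMIs or, for shares, 3 barcodes. The scripts were tested on simulated data with known ratios.

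Named genes were the 20 highest against other kept barcodes, among genes at 200 CPM or more in members. For cKO against WT they were the 10 highest and 10 lowest ratios whose interval left out 1, among genes at 100 CPM in either library. Listed genes were named as well, and some of them are not reported here. Genes of the 2 ranges outside these rules were chosen after their values were seen. Doublets were kept, since Scrublet marked 2 barcodes in each library at its automatic threshold. Taking the top 0.8% per 1000 barcodes (243 in cKO and 534 in WT) removed 1 cKO and 2 WT members, as an alternative. Coordinates (1-based) came from GENCODE M21. Python 3.11.15, numpy 2.4.6, scipy 1.17.1, pandas 2.3.3, scanpy 1.11.5, R 4.3.3 and edgeR 4.0.16 (for TMM scaling of counts only) were used.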

Additional observations from a re-analysis of the deposited data

How the results depend on the processing

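No paired analysis was possible because each genotype had 1 library and no test across samples was made. Counts of genes at least 2-fold apart moved with these settings, cKO over WT: 767 higher and 586 lower with no collagen limit, 20 higher and 42 lower among genes with at least 100 summed UMIs, 112 higher with equal weight per barcode, 111 higher and 87 lower without the G2 and M range, and 90 higher and 83 lower without both ranges (174 and 362 as reported). The member share over low-collagen barcodes was 1.49% in cKO and 1.14% in WT. The late-low share was 22.7% in cKO and 17.5% in WT with at least 3 Cd79 UMIs, and 6.82% in cKO and 0 in WT with at least 10. The G2 and M share was 3.03% in cKO and 19.3% in WT with at least 3. The cause of these moves was not tested, beyond the change of cells or genes that each setting makes. Of 599 values of lists and named genes over 23 settings, 496 stayed within 0.1 of the list median or within the counting interval of the gene, and 103 moved. No named ratio that was called changed direction in a setting where the gene kept at least 20 summed UMIs. Below that number some did. Without both ranges Atp1b1 went from 5.75 to 0.767, on 6 and 6 UMIs, and Pclaf from 0.0459 to 3.83, on 5 and 1 UMIs. List medians, which carry no call, did turn with no collagen limit, among them identity (-0.66), late (-0.62), class II (-0.40), receptor signalling (-0.49), copper (0.26) and heat shock (0.54). The exclusions of the ranges were chosen after seeing the data. The number of members, 56 and 43, and their median depth limit all comparisons of genes at low counts.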

Other observations

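Cd80, a costimulatory ligand, had 0 UMIs in cKO members and 12 in WT members, 10 of them in 3 barcodes of the G2 and M range. Ighg3, the IgG3 heavy chain, had 0 UMIs in cKO and 20 in WT, 15 of them in 3 barcodes of that range. Dtx1, a regulator of Notch signalling listed with marginal zone B cells, had 29 UMIs in 18 cKO members and 13 UMIs in 9 WT members, a ratio of 3.15 (1.59 to 6.61), and 2.68 (1.19 to 6.81) without both ranges. Of the 6 compared genes of that list 2 were above 0, with a median log2 ratio of -0.08.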
